A study of Mus musculus with 18 samples.

Results

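The genes described here were listed as genes of the endocrine cells of the islet other than the beta cell. Whether beta cells express some of them too was not tested. They are the hormone genes Gcg, Sst, Ppy, Pyy and Ghrl, the transcription factor genes Irx2 and Hhex, the amino acid transporter gene Slc7a2, and Ttr, which encodes the thyroxine and retinol carrier transthyretin. The genes were taken from a list of names, chosen with earlier results of these data known, and a gene counted as measured where a probe set of the array was annotated with its symbol alone. All 9 were measured, each by 1 probe set, among 22180 genes with a symbol of their own. Levels were on the log2 scale, so that a difference of 1 is a doubling.

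Islets are dominated by beta cells, which secrete insulin, and hold smaller numbers of alpha cells, which secrete glucagon and raise blood glucose, and of delta cells, whose somatostatin restrains the release of both hormones. PP cells secrete pancreatic polypeptide, and epsilon cells, rare in the adult islet, secrete ghrelin. TRAF2 and TRAF3 are adaptor proteins that hold back NIK, a kinase acting through the alternative NF-kB route, and the study asked what lasting NIK activity does to beta cells.

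RNA of isolated islets from male and female mice on a C57BL/6 background, 16 weeks old, was hybridised to 18 arrays in 6 groups of 3. The TRAF3 knockouts carried TRAF3loxP/loxP and RIP-Cre, and the TRAF2 knockouts carried TRAF2loxP/loxP and RIP-Cre. RIP-Cre expresses the recombinase from the rat insulin promoter, so that the deletion was aimed at beta cells. Which islet cells the RNA of the genes described here came from was not measured. The controls were littermates with floxed alleles, of which the floxed gene and the absence of Cre were not stated, and the text of the series names TRAF2 for both lines, so the genotypes were taken from the sample labels. Each genotype was studied after 8 weeks of high-fat diet (HFD, with 45% of its energy from fat), started when the mice were 8 weeks old, and on chow. The labels do not say that each array is a separate animal, so p-values measure the spread between these samples. In whole islets, fewer cells of a type and less RNA per cell cannot be told apart.

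The hormones are secreted products of genes whose upstream sequences can be set beside the NF-kB setting of the study, so 250 bases upstream of each hormone gene are shown. They end at the RefSeq transcript start used for the gene, the one farthest upstream where RefSeq lists several; for Sst and Irx2 this start differs from the start of the RefSeq gene record, and motif positions are counted from the transcript start. They are credited to RefSeq in build GRCm38.p6, read 5′ to 3′ on the strand of the gene, and capitals mark stretches that match the kappa B motif GGGNNNNNCC on either strand, with overlapping matches joined. The windows are chr2:62483654-62483903 for Gcg, chr16:23890845-23891094 for Sst, chr11:102101320-102101569 for Ppy, chr11:102107833-102108082 for Pyy and chr6:113719912-113720161 for Ghrl, all on the minus strand.
Gcg: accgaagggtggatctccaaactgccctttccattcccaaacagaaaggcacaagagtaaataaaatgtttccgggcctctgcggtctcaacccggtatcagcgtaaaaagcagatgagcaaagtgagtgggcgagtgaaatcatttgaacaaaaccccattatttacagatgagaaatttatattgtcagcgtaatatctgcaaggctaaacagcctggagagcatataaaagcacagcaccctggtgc
Sst: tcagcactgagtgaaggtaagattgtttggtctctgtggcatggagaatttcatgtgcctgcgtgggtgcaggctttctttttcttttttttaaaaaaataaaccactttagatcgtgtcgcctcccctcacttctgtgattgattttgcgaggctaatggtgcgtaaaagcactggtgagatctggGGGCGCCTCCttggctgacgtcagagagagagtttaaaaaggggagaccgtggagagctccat
Ppy: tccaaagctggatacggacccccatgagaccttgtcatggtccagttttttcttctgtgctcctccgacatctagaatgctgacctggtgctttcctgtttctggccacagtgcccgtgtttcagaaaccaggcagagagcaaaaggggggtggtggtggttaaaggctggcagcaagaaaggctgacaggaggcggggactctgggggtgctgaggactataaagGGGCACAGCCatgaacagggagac
Pyy: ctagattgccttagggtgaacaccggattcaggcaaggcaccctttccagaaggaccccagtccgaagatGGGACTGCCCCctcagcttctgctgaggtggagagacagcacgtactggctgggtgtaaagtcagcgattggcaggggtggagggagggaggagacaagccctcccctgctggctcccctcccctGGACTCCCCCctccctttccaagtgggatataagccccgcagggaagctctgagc
Ghrl: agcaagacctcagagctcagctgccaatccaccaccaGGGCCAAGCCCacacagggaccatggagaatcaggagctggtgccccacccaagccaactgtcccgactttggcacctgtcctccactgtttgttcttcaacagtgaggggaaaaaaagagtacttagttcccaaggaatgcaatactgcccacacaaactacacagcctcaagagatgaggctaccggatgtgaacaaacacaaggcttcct

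The kappa B motif was matched in Sst, from 63 to 54 bases before the start, in Ppy, from 24 to 15 bases before it, and in Ghrl, from 213 to 203 bases before it. Pyy held a stretch from 180 to 170 and another from 55 to 46 bases before its start, and the Gcg window held no match. Of the other members, Hhex held 2 stretches and Irx2 none. The motif is loose, and 45.4% of 27025 promoters of the same length held it, against 5 of the 7 member windows searched. The forkhead motif TGTTTAC and the homeodomain motif TAATTA, searched on both strands, were matched in 0 of the 7 windows, and they occurred in 3.06% and 4.91% of all promoters. A match describes these letters and not a binding site. Ppy and Pyy, which encode related peptides of the neuropeptide Y family, neighbour each other on chromosome 11 with 0 protein-coding genes between them.

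The hormone genes of alpha, delta and PP cells were among the strongest signals of these arrays. Ppy ranked between 3 and 46 among all probe sets of an array, Sst between 9 and 174 and Gcg between 19 and 65. Each array had its maximum between 13.49 and 13.64, and the smallest gap to the maximum of the same array was 0.18 for Ppy, 0.35 for Sst, 0.45 for Ttr, 0.49 for Gcg and 0.87 for Pyy.

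Of these 5 genes, Gcg and Ppy moved little and the others did not stand out in that way. The SD over all 18 arrays was 0.09 for Gcg, smaller than that of all but 0.39% of genes, and 0.13 for Ppy, smaller than that of all but 3.49%. It was 0.25 for Sst, 0.29 for Pyy and 0.37 for Ttr, above that of 52.0%, 66.8% and 79.1% of genes. The 71 genes with a mean of 12 or more, 5 of them described here (Gcg, Sst, Ppy, Pyy and Ttr), had a median SD of 0.148, against 0.223 for the 2126 genes with a mean of 9 to 12 and 0.276 for the 8135 with a mean of 6 to 9. Whether differences near the top of the scale are compressed was not tested. At the other end, Ghrl ranged from 4.91 to 6.57, and its lowest value lay 0.04 above the median of its array, so its size of change is uncertain.

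**Figure D1:**
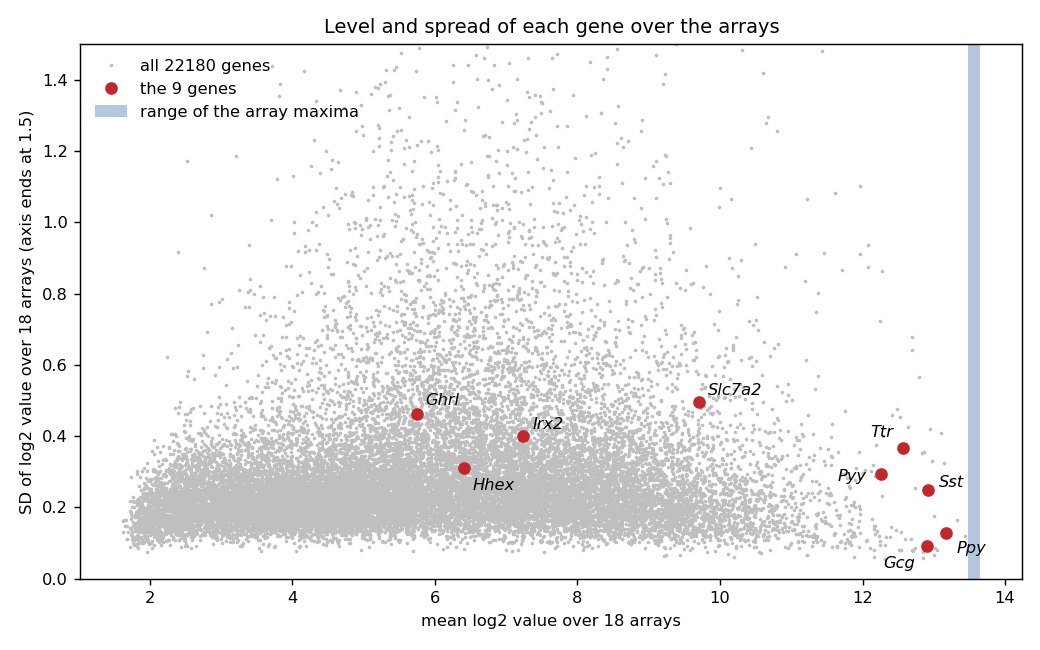
The mean log2 value of each of 22180 genes over 18 arrays is plotted against its SD, with the 9 genes in red and the range of the array maxima, 13.49 to 13.64, as a blue band. Gcg and Ppy sit at the lower right, close to the maxima and with SDs of 0.09 and 0.13, and Ghrl, at a mean near 6, has an SD of 0.46; genes with an SD above 1.5 are outside the axis.

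The labels were checked where the arrays allowed it. Traf2, deleted in beta cells of the TRAF2 knockouts, was measured by a probe set covering the whole transcript, which does not check the deleted part. On HFD it read 6.94, 7.15 and 6.90 in TRAF2 knockouts and 6.98, 7.03 and 6.46 in controls. On chow it read 7.50, 7.23 and 7.22 in TRAF2 knockouts and 7.16, 7.34 and 7.04 in controls, and the adjusted p by limma was 0.975 on HFD and 0.98 on chow. Xist and Y-linked transcripts marked 1 array of each chow group as female and 2 as male, 2 of each HFD knockout group as female and 1 as male, and all 3 HFD controls as female. Sex and diet were therefore partly mixed. Chow control 1, a female array, stood apart: all 9 genes had the highest value of their group there, and its ductal marker score was -0.79, where replicates 2 and 3 had 0.09 and 0.14. A score is the mean deviation of the listed genes from their means over all arrays. Where leaving out this array ends a call of any of the 9 genes, the result without it is given. Differences that were not called are given with all arrays, and some of them lean on this array. Calls of genes outside the 9 were not followed when arrays were left out.

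Against the chow controls, the chow TRAF3 knockouts had lower Slc7a2, Ttr and Ghrl, and all 9 genes had estimates below 0. Slc7a2 was 2.24-fold, Ghrl 1.87-fold and Ttr 1.82-fold lower. On HFD none of the 9 genes passed in either knockout, and on chow none passed in the TRAF2 knockouts. Within the TRAF3 knockouts, HFD islets had higher Ttr and Ghrl than chow islets. Over both diets, Slc7a2 and Irx2 were lower in knockouts than in controls.

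In the chow TRAF3 knockouts limma called 3 of the 9 genes lower and 0 higher, where 4.69% of all 22180 genes were called lower. The share called in either direction depended on level. It was 3.96% of genes with a mean under 6, 18.6% at 6 to 9, 21.4% at 9 to 12 and 12.7% at 12 or more. The median log2 fold change of the 9 genes was -0.51, against -0.01 for all genes. In 6 of the 9 genes (Sst, Ppy, Ghrl, Irx2, Slc7a2 and Ttr) every knockout array lay below every control array, which held for 15.1% of all genes in that direction. The 3 calls rest on different arrays: Slc7a2 and Ttr passed whichever of the 18 arrays was left out, while Ghrl did not pass without chow TRAF3 knockout 1, chow TRAF3 knockout 3 or chow control 1. Markers of other cells differed in the same arrays. The ductal marker score was 0.61, 0.35 and 0.97 in chow TRAF3 knockouts and -0.79, 0.09 and 0.14 in chow controls, with 1 of 8 ductal markers higher (Anxa3, by 2.71). The beta cell gene score was -1.11, -0.62 and -1.42 in chow TRAF3 knockouts and 0.64, 0.40 and 0.11 in chow controls. Of 6 myeloid markers 3 were higher (Cd68, Cd14 and Fcer1g), and their score was -0.01 to 0.24 in chow TRAF3 knockouts and -1.25 to -0.75 in chow controls. Of all genes, 6.33% were called higher in chow TRAF3 knockouts. The acinar score was -0.42 to 0.01 in chow TRAF3 knockouts and -0.34 to 0.50 in chow controls, with 0 of 15 markers called. When the ductal score entered the fit, 0 of the 9 genes passed by limma: Slc7a2 was at -0.56 (adjusted p = 0.148), Ttr at -0.44 (0.138) and Ghrl at -0.53 (0.361). Calls over all genes went from 2445 to 218 in that fit. The ductal score was 0.35 or more in chow TRAF3 knockouts and at most 0.29 in all other arrays. That fit therefore cannot fully tell the score and the group apart. With the acinar score in the fit, or with dim genes left out, 6 passed. The part of myeloid cells in the result was not tested.

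**Figure D2:**
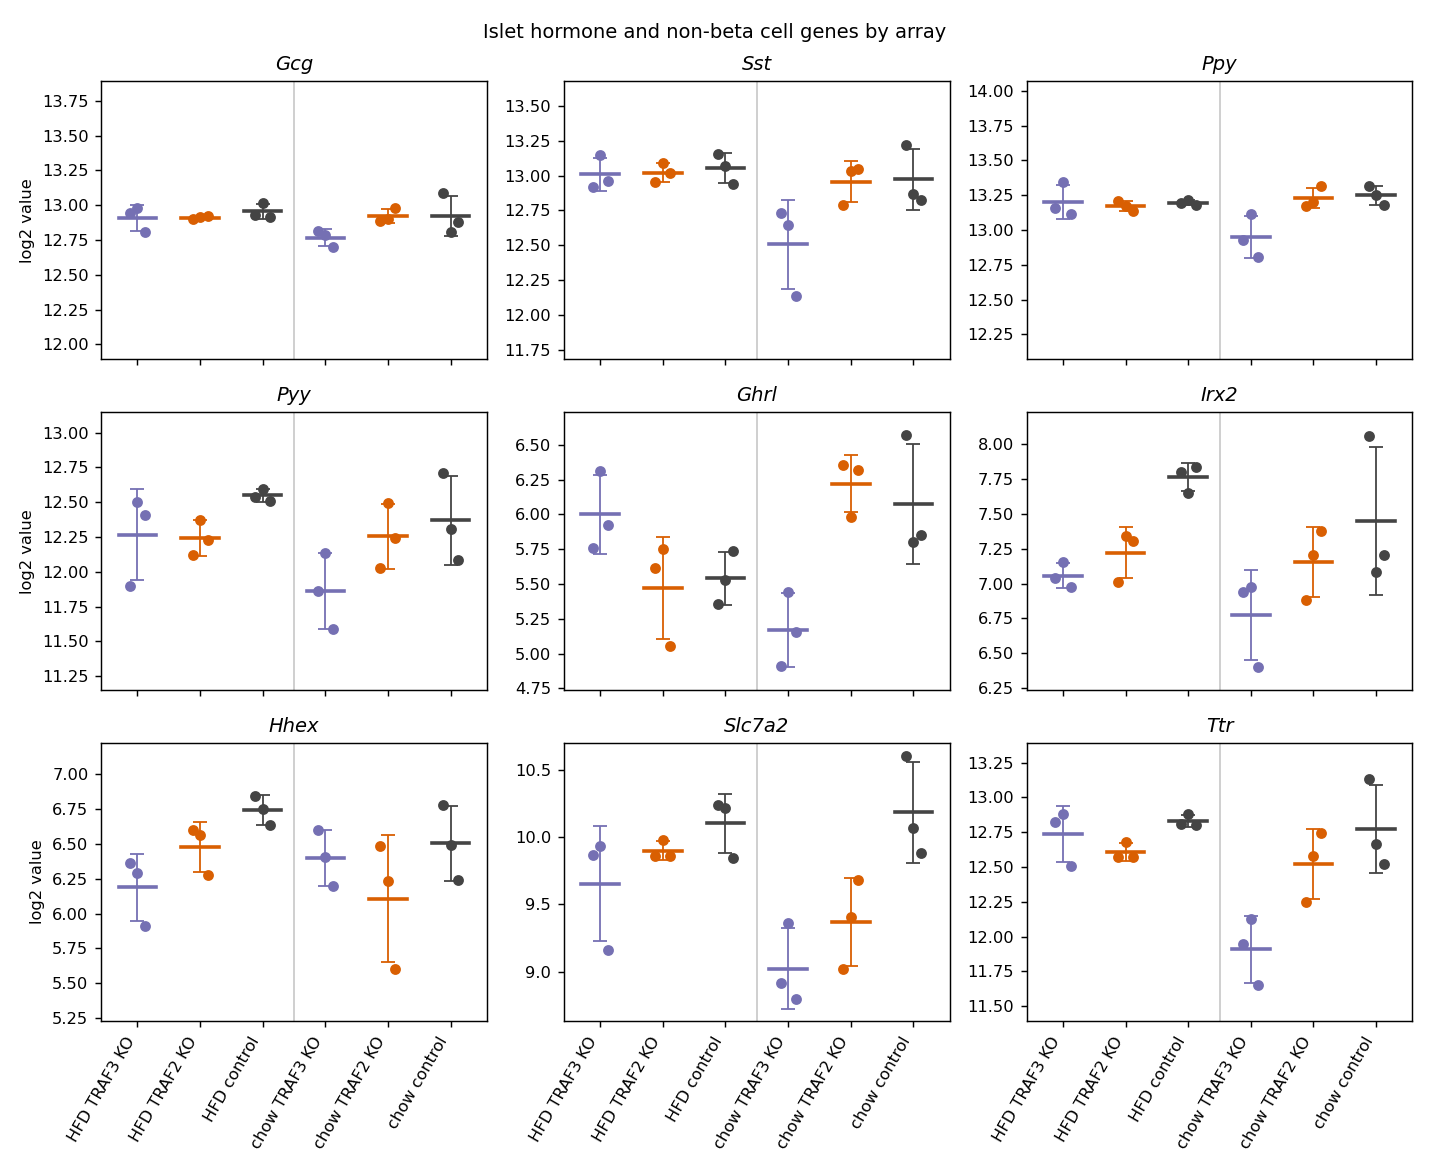
Each panel shows 1 gene, with the log2 value of every array as a point, the mean of 3 arrays as a bar and the SD as whiskers, for TRAF3 knockouts (purple), TRAF2 knockouts (orange) and controls (grey), HFD on the left and chow on the right. Every axis spans at least 2 log2 units; Slc7a2 and Ttr lie lowest in chow TRAF3 knockouts, with means of 9.02 and 11.91, and Gcg is nearly level in all groups.

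Gcg encodes proglucagon, from which alpha cells cut glucagon. In HFD islets it averaged 12.91 ± 0.09 in TRAF3 knockouts, 12.91 ± 0.01 in TRAF2 knockouts and 12.96 ± 0.06 in controls (SD, n = 3 each, as for all means here). In chow islets it read 12.82, 12.78 and 12.70 in TRAF3 knockouts, 12.89, 12.90 and 12.98 in TRAF2 knockouts and 13.09, 12.81 and 12.88 in controls. The arrays of TRAF3 knockouts and controls overlapped at 12.81 to 12.82, and the difference of -0.16 ± 0.10 (SE) had an adjusted p of 0.378 by limma, with a 95% interval of -0.37 to 0.05. Gcg passed in none of the 14 comparisons.

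Sst encodes somatostatin of delta cells. On chow, Sst read 12.73, 12.65 and 12.14 in TRAF3 knockouts, 12.79, 13.03 and 13.05 in TRAF2 knockouts and 13.22, 12.87 and 12.82 in controls. All 3 TRAF3 knockout arrays lay below all other chow arrays, chow TRAF3 knockout 3 by the most. The difference from controls was -0.47 ± 0.15 with an adjusted p of 0.0648 by limma. In HFD islets the means were 13.01 ± 0.12 in TRAF3 knockouts, 13.02 ± 0.07 in TRAF2 knockouts and 13.06 ± 0.11 in controls, which overlapped. The HFD TRAF3 knockouts all lay above the chow TRAF3 knockouts, by 0.50 ± 0.15 (adjusted p = 0.0546 by limma).

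Ppy encodes pancreatic polypeptide. Its chow values were 12.93, 13.11 and 12.81 in TRAF3 knockouts, 13.17, 13.21 and 13.31 in TRAF2 knockouts and 13.31, 13.25 and 13.18 in controls. The TRAF3 knockout arrays again lay below all other chow arrays, and the difference from controls was -0.30 ± 0.10 (adjusted p = 0.0802 by limma). In HFD islets the means were 13.20 ± 0.12 in TRAF3 knockouts, 13.17 ± 0.04 in TRAF2 knockouts and 13.20 ± 0.02 in controls. With limma's variance shrunk along the expression level and robustly, the chow difference of Ppy had an adjusted p of 0.0265 and that of Sst 0.0402, so these 2 genes sat at the threshold.

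Pyy encodes peptide YY, made in mouse islets by several of the endocrine types. On chow, Pyy read 11.86, 12.13 and 11.59 in TRAF3 knockouts, 12.02, 12.50 and 12.24 in TRAF2 knockouts and 12.71, 12.31 and 12.08 in controls, and the TRAF3 knockouts and controls overlapped through 1 array of each. The difference was -0.51 ± 0.19 (adjusted p = 0.105 by limma). In HFD islets it read 11.89, 12.50 and 12.41 in TRAF3 knockouts, 12.12, 12.38 and 12.23 in TRAF2 knockouts and 12.54, 12.60 and 12.51 in controls. Every knockout array on HFD lay below every control array, by -0.28 ± 0.19 in TRAF3 and -0.30 ± 0.19 in TRAF2 knockouts, and neither passed (adjusted p = 0.539 and 0.968 by limma).

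Ghrl encodes ghrelin, the hormone of epsilon cells that the stomach makes in quantity. In HFD islets it read 5.76, 6.32 and 5.92 in TRAF3 knockouts, 5.61, 5.75 and 5.06 in TRAF2 knockouts and 5.36, 5.53 and 5.74 in controls. In chow islets it read 4.91, 5.44 and 5.16 in TRAF3 knockouts, 6.36, 5.98 and 6.32 in TRAF2 knockouts and 6.57, 5.80 and 5.85 in controls. The chow TRAF3 knockouts were below every other chow array and the HFD TRAF3 knockouts above every other HFD array. Ghrl was thus the 1 gene of the 9 whose TRAF3 knockouts lay apart from controls in both diets and on opposite sides.

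Ghrl fell by 0.90 ± 0.23 on the log2 scale in chow TRAF3 knockouts (adjusted p = 0.0204 by limma), and by 0.66 without chow control 1 (adjusted p = 0.109). In the fit of these 6 arrays alone the adjusted p was 0.0539. The HFD TRAF3 knockouts exceeded controls by 0.46 ± 0.23, which did not pass (adjusted p = 0.372). The difference between these 2 differences, the interaction of the TRAF3 knockout with diet, was 1.36 ± 0.33 and passed (adjusted p = 0.0252), as 1 of the 9 genes, where 2.52% of all genes were called higher. The interaction did not pass without chow TRAF3 knockout 1 or 3, HFD TRAF3 knockout 2 or HFD control 1, and the highest adjusted p was 0.068. With the ductal score in the fit it was 0.0683. Since the HFD controls were all female, within-sex values were taken on chow, where each group held both: Ghrl read 4.91 in the female TRAF3 knockout and 6.57 in the female control, and averaged 5.30 in the male TRAF3 knockouts and 5.83 in the male controls.

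Irx2 encodes an Iroquois transcription factor found in alpha and not in beta cells of the mouse. In HFD islets it read 7.04, 7.16 and 6.98 in TRAF3 knockouts, 7.02, 7.35 and 7.31 in TRAF2 knockouts and 7.80, 7.65 and 7.84 in controls. Every knockout array lay below every control array. The differences were -0.71 ± 0.22 for TRAF3 knockouts (adjusted p = 0.113 by limma) and -0.54 ± 0.22 for TRAF2 knockouts (adjusted p = 0.797), and neither passed.

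In chow islets Irx2 read 6.94, 6.98 and 6.40 in TRAF3 knockouts, 6.88, 7.21 and 7.38 in TRAF2 knockouts and 8.06, 7.08 and 7.21 in controls. The TRAF3 knockouts lay below the controls, whose replicate 1 was far above the other 2, and the difference was -0.68 ± 0.22 (adjusted p = 0.0621 by limma). Over both diets and both knockouts, Irx2 fell by 0.56 ± 0.14 (adjusted p = 0.0382), 1.47-fold, with overlapping arrays. This call did not pass in 11 of the 18 fits that left out 1 array, nor with a sex score (adjusted p = 0.0538) or the ductal score (0.135) in the fit, and it was -0.40 without chow control 1 (adjusted p = 0.0912).

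Hhex encodes a homeobox repressor that maintains delta cells. In HFD islets it read 6.36, 6.29 and 5.91 in TRAF3 knockouts, 6.60, 6.56 and 6.28 in TRAF2 knockouts and 6.85, 6.75 and 6.63 in controls, so that the knockouts of both lines lay below the controls. The differences were -0.56 ± 0.21 (adjusted p = 0.192 by limma) and -0.26 ± 0.21 (adjusted p = 0.971). On chow the means were 6.40 ± 0.20 in TRAF3 knockouts, 6.11 ± 0.46 in TRAF2 knockouts and 6.50 ± 0.27 in controls, which overlapped. Hhex was the 1 gene of the 9 with a lower estimate in HFD than in chow TRAF3 knockouts (-0.21 ± 0.21, adjusted p = 0.625).

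Slc7a2 encodes a cationic amino acid transporter that carries arginine and lysine and is abundant in alpha cells. In chow islets it read 8.91, 9.36 and 8.79 in TRAF3 knockouts, 9.02, 9.41 and 9.68 in TRAF2 knockouts and 10.61, 10.07 and 9.89 in controls. All 6 knockout arrays lay below all 3 control arrays. Slc7a2 fell by 1.16 ± 0.24 in TRAF3 knockouts (adjusted p = 0.0062 by limma) and had a difference of -0.82 ± 0.24 in TRAF2 knockouts, which did not pass (adjusted p = 0.293). The adjusted p depends on how many other genes differ in a comparison, and the 2 lines share their controls; the difference between the lines on chow was -0.35 ± 0.24 (adjusted p = 0.54). Among female chow arrays Slc7a2 read 8.91 in the TRAF3 knockout and 10.61 in the control, and among male chow arrays it averaged 9.08 in TRAF3 knockouts and 9.98 in controls.

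In HFD islets Slc7a2 read 9.87, 9.93 and 9.16 in TRAF3 knockouts, 9.86, 9.98 and 9.86 in TRAF2 knockouts and 10.24, 10.22 and 9.85 in controls. The groups overlapped through HFD control 3, and the differences of -0.45 ± 0.24 and -0.20 ± 0.24 did not pass (adjusted p = 0.398 and 0.977 by limma). Over both diets and both knockouts Slc7a2 fell by 0.66 ± 0.14, 1.58-fold (adjusted p = 0.021). That call did not pass without HFD control 1, HFD control 2 or chow control 1, the last of which gave an adjusted p of 0.0752.

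Ttr encodes transthyretin, made by cells of the islet, alpha cells among them, and by the liver. The chow values were 11.95, 12.12 and 11.65 in TRAF3 knockouts, 12.25, 12.58 and 12.75 in TRAF2 knockouts and 13.13, 12.67 and 12.52 in controls. The TRAF3 knockouts lay below all 6 other chow arrays, and Ttr fell by 0.87 ± 0.17 against controls (adjusted p = 0.00553 by limma). In HFD islets the means were 12.74 ± 0.20 in TRAF3 knockouts, 12.61 ± 0.06 in TRAF2 knockouts and 12.83 ± 0.04 in controls. Ttr was higher in HFD than in chow TRAF3 knockouts by 0.83 ± 0.17 (adjusted p = 0.00823), without chow TRAF3 knockout 3 at an adjusted p of 0.0561, and the interaction of the TRAF3 knockout with diet was 0.77 ± 0.24 (adjusted p = 0.073).

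**Figure D3:**
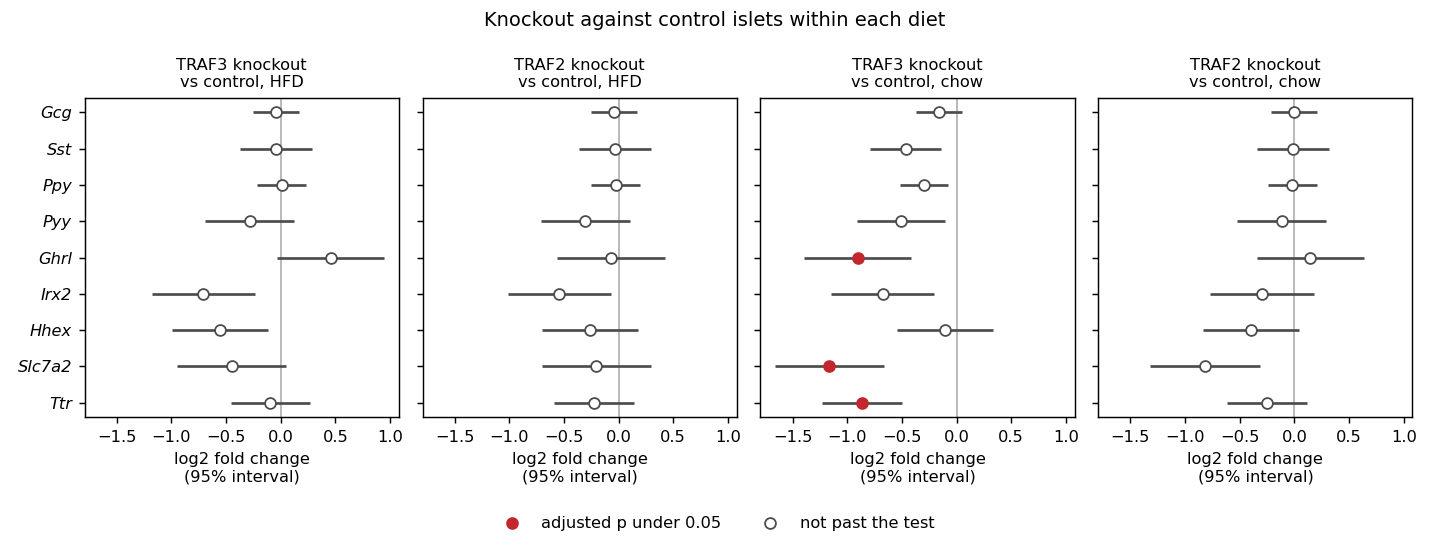
The log2 fold change of each of the 9 genes in knockout against control islets is given with its 95% interval, in 1 panel for each line and diet, and filled red points passed by limma at an adjusted p under 0.05. The 3 red points, Ghrl, Slc7a2 and Ttr, are in the panel of chow TRAF3 knockouts, and the Irx2 interval lies below 0 in 3 of the 4 panels without passing in any.

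The remaining comparisons of the 9 genes are given by their counts. In the TRAF2 knockouts limma called 0 of the 9 genes on chow, where 0.298% of all genes were called, and 0 on HFD, where 0.252% were. An unadjusted p under 0.05 was reached by 1 gene on chow (Slc7a2), where 6.44% of all genes reached it, and by 1 on HFD (Irx2), where 5.71% did. Arrays did not overlap and were lower in 1 gene on chow (4.82% of all genes) and in 4 on HFD, Pyy, Irx2, Hhex and Ttr (6.87% of all genes). In the HFD TRAF3 knockouts limma called 0 of the 9 genes (2.52% of all genes) and 2, Irx2 and Hhex, had an unadjusted p under 0.05, as had 15.0% of all genes. There, 3 genes lay wholly below controls, Pyy, Irx2 and Hhex (7.98% of all genes), and 1 wholly above, Ghrl (8.61% of all genes). Over both knockouts and diets 2 of the 9 genes were called lower, where 0.960% of all genes were, and all 9 estimates were below 0. The knockouts of the 2 lines share their control arrays within a diet.

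High-fat diet itself was set against chow within each genotype. In the TRAF3 knockouts 2 of the 9 genes were called higher, Ttr and Ghrl (2.66% of all genes), and 4 lay wholly above chow, Sst, Ppy, Ghrl and Ttr (10.5% of all genes). Ghrl rose by 0.83 ± 0.23 (adjusted p = 0.0358 by limma), which did not pass without HFD TRAF3 knockout 2 (adjusted p = 0.147), without chow TRAF3 knockout 1 or 3, or with the sex score in the fit (0.0563); 2 of the 3 HFD and 1 of the 3 chow TRAF3 knockouts were female. In the fit with only these 6 arrays 0 of the 9 genes passed, at adjusted p of 0.0544 for Ttr and 0.0756 for Ghrl, nor did any with the ductal score in the fit of all arrays (0.0762 and 0.276). This comparison shares the chow TRAF3 knockout arrays with that against chow controls.

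In the TRAF2 knockouts limma called 0 of the 9 genes between HFD and chow (1.96% of all genes), and 2 had an unadjusted p under 0.05, as had 14.5% of all genes. Ghrl lay wholly below chow (12.2% of all genes in that direction) with a difference of -0.75 ± 0.23 (adjusted p = 0.116), and Slc7a2 wholly above it (11.7%) with a difference of 0.53 ± 0.24 (adjusted p = 0.31). In the controls limma called 0 of the 9 genes (0.884% of all genes), and Ghrl, with an unadjusted p under 0.05 (15.9% of all genes), lay wholly below chow at -0.53 ± 0.23 (adjusted p = 0.274, 9.42% of all genes lower without overlap). HFD controls were all female and 2 of the 3 chow controls male, so diet and sex are partly mixed in that comparison. The interaction of the TRAF2 knockout with diet was called in 0 of the 9 genes and in 0% of all genes, and 0 of the 9 had an unadjusted p under 0.05 (2.83% of all genes).

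The 2 lines were also compared with each other. Averaged over diets, limma called 0 of the 9 genes (0.275% of all genes), and 0 had an unadjusted p under 0.05 (12.2% of all genes). The comparisons within a diet, and of the HFD effect between lines, were added after seeing the data. On chow Ghrl was lower in TRAF3 than in TRAF2 knockouts by -1.05 ± 0.23 (adjusted p = 0.0303 by limma), 1 of 9 genes where 0.573% of all genes were called lower. It did not pass in the fit of these 6 arrays alone (adjusted p = 0.149), with the ductal score (0.37), or without chow TRAF2 knockout 2 or 3 or chow TRAF3 knockout 1 or 3 (up to 0.163). The TRAF3 knockouts lay wholly below the TRAF2 knockouts in 5 genes, Gcg, Sst, Ppy, Ghrl and Ttr (10.0% of all genes). On HFD limma called 0 of the 9 (1.05% of all genes), and Ghrl, at an unadjusted p under 0.05 (11.2% of all genes), lay wholly above at 0.53 ± 0.23 (adjusted p = 0.402, 8.26% of all genes higher without overlap). The HFD effect on Ghrl was higher in TRAF3 than in TRAF2 knockouts by 1.58 ± 0.33 (adjusted p = 0.0216), 1 of 9 genes where 1.16% of all genes were called higher. It did not pass with the ductal score (adjusted p = 0.0857), nor without HFD TRAF2 knockout 3, chow TRAF2 knockout 3, HFD TRAF3 knockout 2 or chow TRAF3 knockout 1 or 3 (up to 0.0699).

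Other genes of the same cell types were listed beside the 9. Of the other alpha cell genes 4 of 7 were measured. In chow TRAF3 knockouts 1 was called lower, as were 4.69% of all genes: Slc38a5, a glutamine transporter that alpha cells raise when they proliferate. Its mean was 5.47 in chow TRAF3 knockouts and 7.68 in chow controls, a log2 fold change of -2.21 ± 0.63 (adjusted p = 0.0341 by limma). In HFD TRAF3 knockouts it averaged 7.82, higher than on chow by 2.35 ± 0.63 (adjusted p = 0.0302). The score of these 4 genes was -0.96 to -0.64 in chow TRAF3 knockouts and -0.26 to 0.44 in chow controls. On HFD it was -0.14 to 0.26 in TRAF3 knockouts, 0.03 to 0.52 in TRAF2 knockouts and 0.56 to 0.96 in controls, with all knockouts below all controls and 0 of 4 genes passing by limma. The alpha cell transcription factor gene Irx1 was at -0.68 ± 0.23 (adjusted p = 0.147) and Pou3f4 at -0.63 ± 0.21 (adjusted p = 0.149) in HFD TRAF3 knockouts.

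Of 4 measured delta and epsilon cell genes 0 passed in chow TRAF3 knockouts by limma, with the retinol carrier gene Rbp4 at -0.31 ± 0.18 (adjusted p = 0.32) and the ghrelin receptor gene Ghsr at -0.11 ± 0.22 (adjusted p = 0.852). Only 2 of the 4 estimates were below 0 there. They ran from -0.31 to 0.23, with a median of -0.02. In HFD TRAF3 knockouts Prg4 fell by 1.37 ± 0.35 (adjusted p = 0.0489), with means of 3.37 in HFD TRAF3 knockouts and 4.75 in HFD controls, below the array medians. Of 12 receptors of islet hormones 1 was called lower in chow TRAF3 knockouts, as were 4.69% of all genes. This was Glp1r, the receptor for an incretin cut from proglucagon. It read 12.31 in chow TRAF3 knockouts and 12.85 in chow controls (-0.54 ± 0.15, adjusted p = 0.0355). Glp1r was higher in HFD than in chow TRAF3 knockouts by 0.54 ± 0.15 (adjusted p = 0.0396), as was the somatostatin receptor gene Sstr2 by 0.98 ± 0.22 (adjusted p = 0.0127).

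Npy1r, a receptor for peptide YY and its relatives, differed on HFD. It averaged 4.45 in HFD TRAF3 knockouts, 5.89 in HFD TRAF2 knockouts and 5.62 in HFD controls. It fell by 1.17 ± 0.26 in HFD TRAF3 knockouts against HFD controls (adjusted p = 0.0235 by limma) and was higher in HFD than in chow TRAF2 knockouts by 1.73 ± 0.26 (adjusted p = 0.00268). The mean of HFD TRAF3 knockouts lies below the array medians of 4.80 to 4.96, so these sizes are uncertain.

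Of 13 measured genes listed as general to islet endocrine cells, 5 were also lower in the chow TRAF3 knockouts. Which cell types express each of them was not measured. Of all genes, limma called 4.69% lower in the chow TRAF3 knockouts. Pax6 and Nkx2-2, transcription factors of alpha as well as beta cells, fell by 0.84 ± 0.17 (adjusted p = 0.00639 by limma) and by 0.94 ± 0.25 (adjusted p = 0.0254). Scg2, a granule protein gene, fell by 0.67 ± 0.17 and the transcription factor gene Insm1 by 0.54 ± 0.16, and the fifth, the granule protein gene Chga, fell by 0.43 ± 0.12. The median log2 fold change was -0.45 over these 13 genes and -1.47 over 9 beta cell genes, of which 7 fell, beside -0.51 over the 9 genes described here. These medians describe lists measured in the same arrays, and the difference between lists was not tested.

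**Figure D4:**
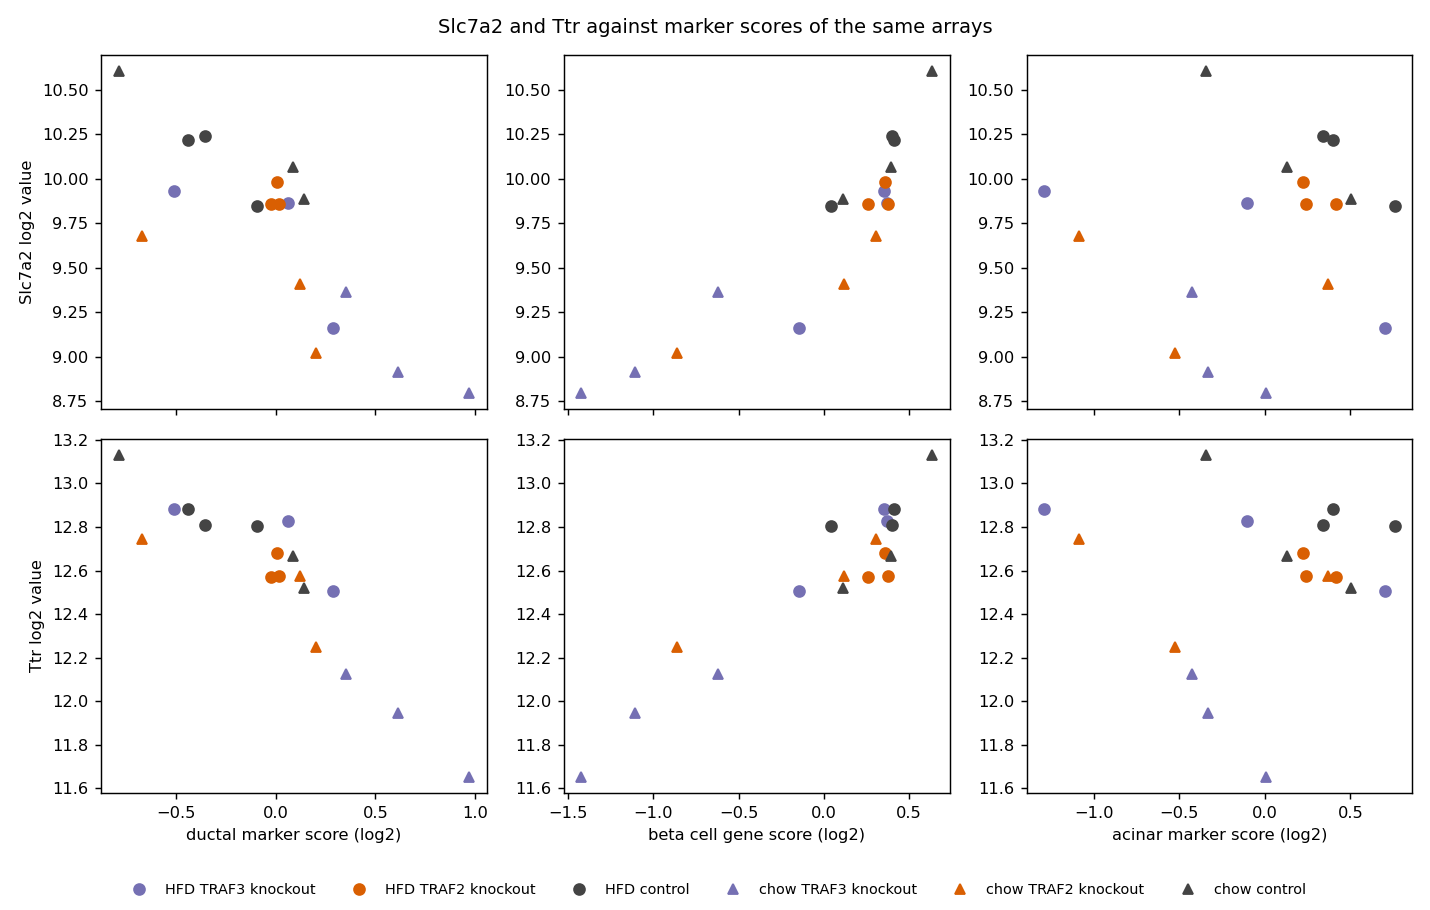
Log2 values of Slc7a2 (top) and Ttr (bottom) in each of 18 arrays are plotted against the ductal marker, beta cell gene and acinar marker scores of the same arrays, for HFD (circles) and chow (triangles) and by genotype (colour). The 3 chow TRAF3 knockouts combine the lowest Ttr values, 11.65 to 12.12, with ductal scores of 0.35 to 0.97, and chow control 1, at a ductal score of -0.79, has the highest values of both genes.

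Most pairs of the 9 genes, though none with Hhex by Pearson's r, varied together across arrays. Of 36 pairs 35 correlated positively over the 18 arrays, and 24 passed by Pearson's r and 23 by Spearman's rho (permutation test with 100000 resamples, two-sided, adjusted over the 36 pairs). How many pairs among all genes would pass was not counted, so whether such correlation is particular to these genes was not tested. Arrays of 1 group share genotype and diet, so the correlation was repeated on deviations from the group means, where 11 pairs passed, all of them among the 24. The closest pair was Sst and Ttr, with r = 0.90 (rho = 0.80, adjusted permutation p = 7.2e-05), r = 0.81 without the 2 arrays farthest from the median of Sst, and r = 0.80 within groups (adjusted permutation p = 0.0354). Slc7a2 and Ttr had r = 0.89 (rho = 0.82, adjusted permutation p = 7.2e-05), 0.82 without the 2 farthest arrays and 0.92 within groups (adjusted permutation p = 0.0036). The raw permutation p of both pairs by Pearson's r, 1e-05, is the smallest that 100000 resamples can give.

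Within diets the pairs differed in strength. Sst and Ttr had r = 0.92 over the 9 chow arrays and 0.40 over the 9 HFD arrays, and Slc7a2 and Ttr had 0.91 and 0.68. Hhex stood apart from the others, with r between 0.03 and 0.43 with the other 7 genes and -0.22 with Ghrl, and 0 of its 8 pairs passed by Pearson's r, while Hhex and Slc7a2 passed by Spearman's rho (0.56, adjusted permutation p = 0.027). Ghrl passed with Ppy (r = 0.73), Ttr (0.55) and Gcg (0.54), of which the last 2 did not pass by Spearman's rho.

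**Figure D5:**
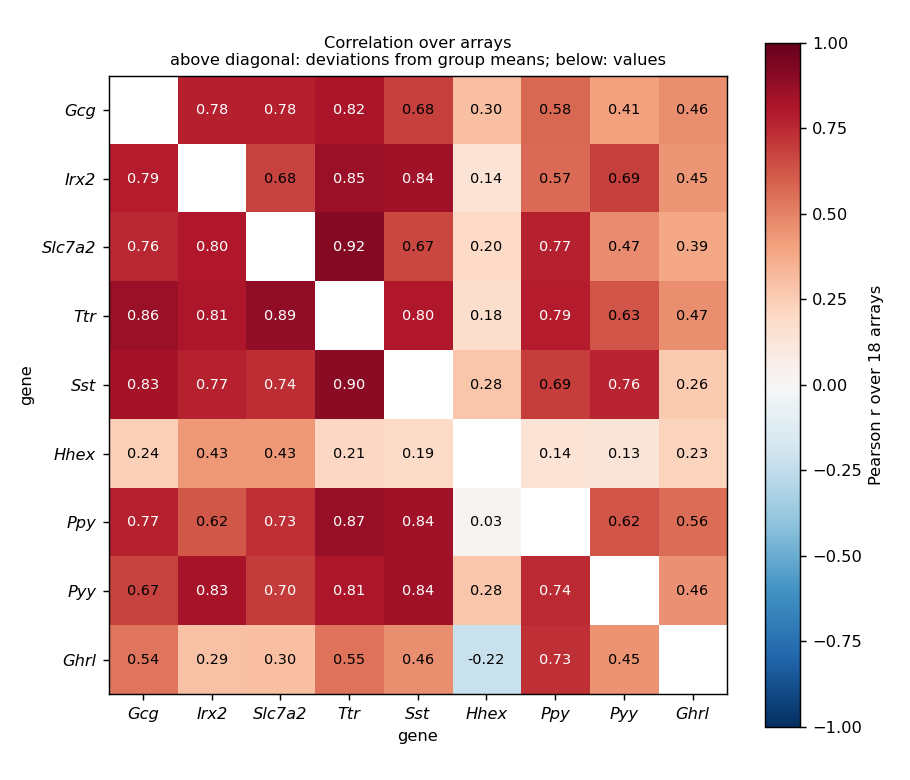
Pearson's r between each pair of the 9 genes over 18 arrays is shown from blue (-1) to red (1), below the diagonal for log2 values and above it for deviations from the group means. The block of Gcg, Irx2, Slc7a2, Ttr and Sst is red on both sides, with Slc7a2 and Ttr at 0.89 and 0.92, and the row of Hhex is pale.

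For each gene the genes whose pattern over the 18 arrays was most alike were named by the highest Pearson's r, with no p because they were picked as the highest. Slc7a2 was closest to Rab37, a GTPase of secretory granules (r = 0.98), and Hapln1 (r = 0.97). Ttr was closest to Ucn3, a urocortin gene of mature mouse beta cells (r = 0.96), and to Nt5dc2 (r = 0.96). Sst was closest to Tmem59l (r = 0.95) and Aplp1 (r = 0.91), and Ppy to Mast3 and the neuroendocrine granule protein gene Resp18 (r = 0.91 each). Gcg was closest to Drc1 and Npr2 (r = 0.93 each), Irx2 to Mamld1 (r = 0.92) and Gpr179 (r = 0.91), and Pyy to Gpr179 (r = 0.91) and Zfyve21 (r = 0.87). Ghrl was closest to Nktr (r = 0.91) and Mau2 (r = 0.83), and Hhex to Pnldc1 (r = 0.83) and Arhgap29 (r = 0.80).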

How the data were processed

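For each of 18 samples, 250 ng of islet RNA was labelled using biotin and hybridised to a 1-colour array. The authors deposited log2 values per probe set; the submitters' processing notes name RMA, which corrects background, normalizes quantiles and summarises probes, and limma, without versions. The genome build behind the probe annotation was not given in the sources used here. The table held 41345 probe sets, of which 23521 had 1 symbol, 1814 several and 16010 none here. Where a gene had several probe sets the one with the highest mean was used, which left 22180 genes. No filter on signal was applied. Precision is limited by the number of arrays.

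Groups were compared with limma 3.58.1 in R 4.3.3 (lmFit and eBayes defaults, 1 fit of 6 group means, 12 residual and 3.69 prior degrees of freedom, two-sided, Benjamini-Hochberg over all genes in each comparison). An adjusted p under 0.05 passed, SE is the moderated one, and the script was tested on simulated data. There were 11 planned comparisons and 3 added after seeing the data. Correlations used Python 3.11.15 with scipy 1.17.1.

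The members and lists were chosen with earlier results of these data known. All members are named, with the 2 genes most alike to each, and of other islet lists genes that passed, at most 4 per list and comparison by size, or the first 2 measured where none passed. Chga, the fifth of 5, was named after its value was seen. Placeholder symbols were skipped. RefSeq promoters of 7 members were searched. None was found for Slc7a2, and Ttr was left out of the search. Alternatives were arrays centred on their median, repeated quantile normalization, a trended and robust eBayes, a filter on dim genes (11090 kept), fits of only the groups compared, a block for the replicate number, covariates (sex, acinar or ductal score), and each array left out in turn. Traf3 itself is not reported here.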

Additional observations from a re-analysis of the deposited data

Results flagged for a closer look

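In Ghrl, the ghrelin gene, the effect of the TRAF3 knockout differed between diets. The interaction was 1.36 ± 0.33 (SE) on the log2 scale (adjusted p = 0.0252 by limma). The knockouts differed from controls by 0.46 on HFD and by -0.90 on chow. In each diet 3 of 3 arrays lay on the same side of every control, as in 8.61% of all genes (HFD, higher) and 15.1% (chow, lower). The call was lost in 4 of the 18 fits that left out 1 array. With the ductal score in the fit the adjusted p by limma was 0.0683. All HFD controls were female.

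The effect of HFD on Ghrl also differed between the lines, by 1.58 ± 0.33 (adjusted p = 0.0216 by limma). HFD minus chow was 0.83 in TRAF3 knockouts and -0.75 in TRAF2 knockouts, with no overlap of arrays in either line. Such separation held for 10.5% of all genes in TRAF3 knockouts (higher) and 12.2% in TRAF2 knockouts (lower). This call was lost in 5 of the 18 fits that left out 1 array. With the ductal score in the fit the adjusted p by limma was 0.0857. Both results share the TRAF3 knockout arrays, and the lowest Ghrl value lies 0.04 above the median of its array.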

How the results depend on the processing

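No alternative turned the direction of a called difference. Counts stayed within 1.5 times of the reported one in 323 recomputations and did not in 56. With the ductal score as a covariate, members called were 1 over both knockouts and diets, 1 in chow TRAF2 knockouts, 1 for HFD against chow in TRAF2 knockouts (Slc7a2 in all 3), and 0 in chow TRAF3 knockouts, for HFD against chow in TRAF3 knockouts, for the TRAF3 interaction with diet, for TRAF3 against TRAF2 on chow and for the HFD effect between lines. With the acinar score they were 6 in chow TRAF3 knockouts, 4 for HFD against chow in TRAF3 knockouts, 2 for TRAF3 against TRAF2 on chow, and 1 each in chow TRAF2 knockouts and for HFD against chow in TRAF2 knockouts. With dim genes left out, which tests fewer genes, they were 6 in chow TRAF3 knockouts, 2 for the TRAF3 interaction and 2 for TRAF3 against TRAF2 on chow. With trend and robust, 5 were called in chow TRAF3 knockouts. With only the groups compared, 0 were called for HFD against chow in TRAF3 knockouts and for TRAF3 against TRAF2 on chow. With the sex score, 1 was called over both knockouts and diets and 1 for HFD against chow in TRAF3 knockouts. Calls over all genes moved with these settings too. In chow TRAF3 knockouts they were 2445 in the main fit, 218 with the ductal score and 4102 with the acinar score. Apart from fewer genes or arrays, the cause was not tested.

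With the replicate block, 1 member (Hhex, adjusted p = 0.0302 by limma) was called in HFD TRAF3 knockouts, and over both knockouts and diets Hhex passed (adjusted p = 0.031) and Irx2 did not. Deviations of same-numbered arrays correlated at -0.549 to 0.529 (median 0.029, 45 pairs) and of other arrays at -0.49 to 0.553 (median -0.032, 90 pairs), so the numbers were not taken as pairing.

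With each array left out in turn, counts were 0 to 3 over both knockouts and diets, 2 to 4 in chow TRAF3 knockouts, 0 to 1 in HFD TRAF3 knockouts, 0 to 3 for HFD against chow in TRAF3 knockouts, 0 to 2 for the TRAF3 interaction, for TRAF3 against TRAF2 on chow and for the HFD effect between lines, and 0 to 0 in the other 7 comparisons. Deviations from group means left 11 of 24 correlated pairs. Other probe sets per member could not be tried, since each has 1. Signals near the array maximum and, for Ghrl, near the array median limit what can be seen.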
